A study of Mus musculus with 10 samples.

Results

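Among the 16875 gene names measured in 10 mouse colon tumors, the EGF receptor family and its ligands were chosen by name from a set of 10 genes, of which 9 were analysed: the receptor genes Egfr, Erbb2 and Erbb3, the ligand genes Areg, Tgfa, Hbegf, Btc and Ereg, and the regulator gene Lrig3. Epgn was not analysed here. Tumors had been induced with azoxymethane followed by 3 cycles of 2% dextran sulfate sodium (AOM/DSS), a model of inflammation-driven colon cancer, in C57BL/6 mice that were 6 to 10 weeks old at the start. The 5 control tumors were titled Wls WT, and the study describes its control tumors as expressing Wls. For tumor organoids it gives the control genotype as Wls flox/flox. The 5 Villin-Wls cKO tumors carried Wls flox/flox together with Villin-Cre ERT2, a tamoxifen-inducible Cre driven by the villin promoter in intestinal epithelium, and their mice had received 5 injections of tamoxifen at 80 mg/kg, the first of them 30 days before the tumors were taken. Wls is the carrier protein that Wnt ligands need for secretion, so the comparison asks how tumors differ once their epithelium can no longer release Wnts. The study describes tumors that keep Wnt secretion as free of tamoxifen unless it says otherwise. The number of mice behind the tumors is not given in the sources used here, so n counts tumors, and the spread between tumors may include tumors of the same animal.

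EGF family ligands are made as membrane-anchored precursors and are released by proteases at the cell surface. They bind the extracellular part of the receptor tyrosine kinase EGFR, which then pairs with another EGFR or with ERBB2 or ERBB3 and activates the RAS-ERK and PI3K-AKT cascades. ERBB2 has no known ligand of its own and ERBB3 has little kinase activity, so both work mainly as partners. In the intestine, EGFR signaling is known for sustaining the division of crypt cells and for repair of the mucosa after injury, and EGF is a standard component of the medium in which intestinal organoids are grown.

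Of the 9 genes, Areg was higher and Tgfa was lower in Villin-Wls cKO tumors past the threshold, and the other 7 did not pass it. Amphiregulin transcripts had about double the control level, with a ratio of group means of 2.05, and transforming growth factor alpha transcripts had a ratio of 0.685. Egfr had a ratio of 1.50 and came close to the threshold without passing it. Over all 16757 genes tested, 10.9% passed in either direction, 6.12% as higher and 4.75% as lower, against which stand 1 higher and 1 lower gene of 9. The median difference of the 9 genes was -0.051 on the log2 scale, beside 0.0073 over all genes. Values are FPKM (fragments per length of transcript and per sequenced fragment, so that levels of different genes can be compared). Each change is the mean of log2(FPKM + 1) in Villin-Wls cKO tumors minus that in control tumors, with limma standard errors (SE), and the threshold was a Benjamini-Hochberg adjusted p under 0.05 over all genes.

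**Figure D1:**
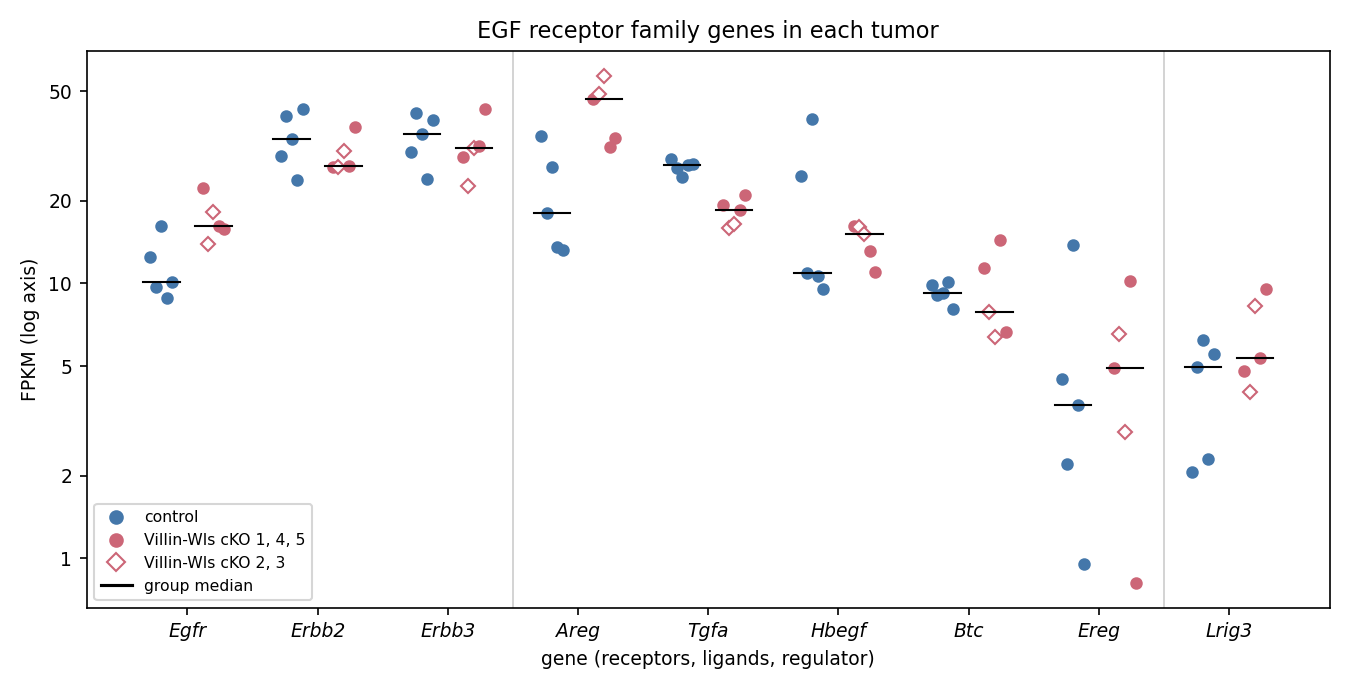
FPKM (log axis) of the 9 genes in each of 5 control and 5 Villin-Wls cKO tumors; each point is 1 tumor, open diamonds are Villin-Wls cKO tumors 2 and 3, and bars are group medians. The 5 Villin-Wls cKO tumors lie below all control tumors for Tgfa, and 4 of the 5 control tumors lie below all Villin-Wls cKO tumors for Areg.

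Several properties of the tumors bear on every value. Wls was at 61.3 to 79.9 FPKM in control tumors and at 2.03 to 11.7 FPKM in Villin-Wls cKO tumors, and the groups did not overlap. Xist, transcribed from the inactive X chromosome of females, was at 439 to 701 FPKM in Villin-Wls cKO tumors and at most 0.420 FPKM in control tumors, while the Y-chromosome genes Eif2s3y, Ddx3y, Kdm5d and Uty were at most 0.138 FPKM in Villin-Wls cKO tumors and at least 2.45 FPKM in control tumors. The study states that females were preferred. Deletion of Wls, sex and tamoxifen cannot be told apart in these groups. Villin-Wls cKO tumors 2 and 3 stood apart by stratified squamous epithelium genes: Krt5 was at 469.5 and 669 FPKM and Trp63 at 16.3 and 17.0 FPKM in them, and the other 8 tumors had at most 0.315 and 0.0649 FPKM of these genes. Villin-Wls cKO tumors 2 and 3 also had the most Wls of their group, at 11.6 and 11.7 FPKM, beside 2.81, 3.61 and 2.03 FPKM in tumors 1, 4 and 5. Leaving out tumors 2 and 3 therefore also removes the tumors with the most remaining Wls. For the 9 genes and the pathway genes named, values without this pair of tumors are given where that ends a call. Read numbers cannot be had from FPKM, so depth is unknown. The samples were whole tumor pieces, in which fewer cells of a type and less RNA per cell cannot be told apart.

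Areg encodes amphiregulin, a ligand of EGFR. It lies on chromosome 5 from 91139599 to 91148432 of GRCm38. Its level was 34.3, 18.1, 26.5, 13.5 and 13.3 FPKM in control tumors 1 to 5, and 46.6, 48.8, 56.7, 31.2 and 33.7 FPKM in Villin-Wls cKO tumors 1 to 5. All Villin-Wls cKO tumors were above the control median, 3 of them were above every control tumor, and the groups overlapped only because control tumor 1 exceeded Villin-Wls cKO tumors 4 and 5. The control mean was 21.1 ± 9.09 and the Villin-Wls cKO mean 43.4 ± 10.7 FPKM (SD over 5 tumors each), and Areg rose by 1.06 on the log2 scale (SE 0.27, limma adjusted p = 0.0305). The change stayed above 0 when any tumor was left out, from 0.93 to 1.26, but the call was lost, with adjusted p of up to 0.0742, without any one of control tumors 2, 4 and 5 or Villin-Wls cKO tumors 1, 2 and 3. Without Villin-Wls cKO tumors 2 and 3 together, the change was 0.86 and did not pass (limma adjusted p = 0.148). The remaining Villin-Wls cKO tumors, at 31.2 to 46.6 FPKM, still lay above the control mean.

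The DNA before the Areg start is shown because Areg was the gene that rose. It covers chr5:91139349-91139598 on the plus strand of GRCm38.p6 from RefSeq, 250 bases that end at the base before the transcription start, with capitals for a cAMP response element (CRE, TGACGTCA) and a TATA box (TATAAA).
Areg: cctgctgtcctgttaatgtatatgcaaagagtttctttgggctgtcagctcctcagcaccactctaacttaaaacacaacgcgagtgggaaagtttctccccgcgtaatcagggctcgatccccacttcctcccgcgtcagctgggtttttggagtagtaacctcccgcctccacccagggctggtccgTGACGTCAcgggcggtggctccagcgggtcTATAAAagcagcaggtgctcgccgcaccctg
The CRE begins at position -61 and the TATA box at position -31, counted back from the start. On either strand, the CRE letters occur in 1.56% and the TATA letters in 12.3% of 32536 promoter windows of this length.

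Tgfa encodes transforming growth factor alpha, another EGFR ligand, and lies on chromosome 6 from 86195223 to 86275719. Its level was 28.3, 26.2, 24.4, 26.9 and 27.1 FPKM in control tumors 1 to 5, and 19.3, 15.9, 16.4, 18.5 and 21.0 FPKM in Villin-Wls cKO tumors 1 to 5. Every Villin-Wls cKO tumor was below every control tumor, and the lowest values were those of tumors 2 and 3. Tgfa was the only one of the 9 genes without overlap between the groups, where 10.1% of all genes tested had none, 5.33% as higher and 4.76% as lower. The control mean was 26.6 ± 1.44 and the Villin-Wls cKO mean 18.2 ± 2.11 FPKM (SD over 5 tumors each), and the log2 change was -0.53 (SE 0.084, limma adjusted p = 0.00343). It passed in all 23 alternative settings, with changes from -0.58 to -0.42. The control tumors differed little among themselves, with a coefficient of variation of 5.40% for Tgfa beside 43.0% for Areg.

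The sequence before the Tgfa start, chr6:86194972-86195221 on the plus strand of GRCm38.p6 from RefSeq, is shown for comparison with that of Areg. It holds neither the CRE nor the TATA letters, so no base is in capitals.
Tgfa: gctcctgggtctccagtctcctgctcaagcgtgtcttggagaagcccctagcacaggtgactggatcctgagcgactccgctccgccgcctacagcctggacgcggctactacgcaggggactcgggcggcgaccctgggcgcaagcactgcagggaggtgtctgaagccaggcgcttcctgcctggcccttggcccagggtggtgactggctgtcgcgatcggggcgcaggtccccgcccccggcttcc
Its G and C content was 69.2%, that of the Areg window 57.2%, and the median of all windows 52.4%. Windows of Egfr, Erbb2, Btc and Lrig3 were searched as well and held neither motif. The AP-1 letters TGANTCA, found in 6.73% of all windows, and the TCF/LEF core letters CTTTGA, found in 13.9%, were in none of the windows of these 6 genes.

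Egfr, on chromosome 11 from 16752203 to 16918158, encodes the receptor shared by these ligands. It was at 12.5, 9.73, 16.2, 8.87 and 10.1 FPKM in control tumors 1 to 5 and at 22.3, 13.9, 18.1, 16.2 and 15.7 FPKM in Villin-Wls cKO tumors 1 to 5. Of the control tumors, 4 were below every Villin-Wls cKO tumor, and control tumor 3 was the exception. Means were 11.5 ± 2.96 and 17.2 ± 3.19 FPKM (SD, n = 5 in each group), a log2 difference of 0.56 (SE 0.17, 95% interval 0.19 to 0.93) with a limma adjusted p of 0.0576. It passed in 4 of 23 alternative settings, among them an equal FPKM total in all tumors (0.64, limma adjusted p = 0.0173) and leaving out control tumor 3 (0.68, limma adjusted p = 0.015). In the other 19 it did not pass, with limma adjusted p of up to 0.127 when control tumor 2 was left out, and of 0.104 without Villin-Wls cKO tumors 2 and 3. The annotation places the antisense gene Egfros within the same span, and the study ran its mapping and quantification at default settings, which do not use strand, so reads of the 2 genes cannot be told apart.

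Erbb2 and Erbb3 were the most abundant receptor transcripts. Erbb2, on chromosome 11 from 98412470 to 98437716, ranged from 23.8 to 43.2 FPKM in control tumors, with a median of 33.5, and from 26.5 to 37.1 FPKM in Villin-Wls cKO tumors, with a median of 26.6. Its log2 difference was -0.19 (SE 0.16, 95% interval -0.55 to 0.18, limma adjusted p = 0.529). Its span overlaps the protein-coding gene Mien1. Erbb3, on chromosome 10 from 128567523 to 128589652, ranged from 24.0 to 41.5 FPKM in control tumors and from 22.6 to 43.1 FPKM in Villin-Wls cKO tumors, and its log2 difference was -0.11 (SE 0.18, 95% interval -0.51 to 0.29, limma adjusted p = 0.764). For both receptors the ranges of the groups overlapped broadly. In control tumors Erbb2 averaged 34.1 ± 8.06 and Erbb3 33.9 ± 7.05 FPKM (SD, n = 5), but Erbb2 was above Erbb3 in only 1 of 5 control tumors. Erbb3 was above Erbb2 in 4 of 5 Villin-Wls cKO tumors. Egfr was below both receptors in each of the 10 tumors, and it made up 14.8 ± 3.85% of the summed receptor FPKM in control tumors and 22.3 ± 4.38% in Villin-Wls cKO tumors (SD, n = 5 in each group).

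Hbegf encodes heparin-binding EGF-like growth factor, which binds EGFR and ERBB4. It was at 24.5, 10.9, 39.6, 10.7 and 9.56 FPKM in control tumors 1 to 5 and at 16.1, 16.1, 15.2, 13.1 and 11.0 FPKM in Villin-Wls cKO tumors 1 to 5. Control tumors 1 and 3 were above all Villin-Wls cKO tumors, and the other 3 control tumors were below all of them. The log2 difference of -0.19 (SE 0.35, 95% interval -0.97 to 0.59, limma adjusted p = 0.795) became 0.12 without control tumor 3. On this gene, the control median of 10.9 FPKM was below the Villin-Wls cKO median of 15.2 FPKM, whereas the control mean of 19.1 FPKM was above the Villin-Wls cKO mean of 14.3 FPKM.

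Ereg, Areg and Btc lie beside each other on chromosome 5 together with Epgn, and these are the 4 protein-coding genes in a span of 375531 bases. Ereg, from 91074622 to 91093646, encodes epiregulin. It was at 4.50, 2.19, 13.8, 3.62 and 0.953 FPKM in control tumors 1 to 5 and at 4.93, 6.57, 2.87, 10.2 and 0.817 FPKM in Villin-Wls cKO tumors 1 to 5, so single tumors differed far more than the groups. Its log2 difference was 0.12 (SE 0.58, 95% interval -1.17 to 1.41, limma adjusted p = 0.930), and its span overlaps the antisense gene Gm19610. Btc, from 91357261 to 91402994, encodes betacellulin. It ranged from 8.08 to 10.1 FPKM in control tumors, and in Villin-Wls cKO tumors it lay outside that range in each one. Tumors 1 and 4 exceeded all controls, with 11.4 and 14.3 FPKM, whereas 2, 3 and 5 were under them all, with 7.87, 6.38 and 6.67 FPKM. The log2 difference was -0.051 (SE 0.19, 95% interval -0.48 to 0.38, limma adjusted p = 0.905). Of the 3 neighbouring genes, then, Areg passed the threshold and Ereg and Btc did not; whether their changes differ from one another was not tested.

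Lrig3, on chromosome 10 from 125966168 to 126015359, encodes a transmembrane protein with leucine-rich repeats and immunoglobulin domains, related to the EGFR inhibitor LRIG1. It was at 2.06, 4.95, 6.22, 2.29 and 5.52 FPKM in control tumors 1 to 5 and at 4.80, 4.02, 8.26, 5.35 and 9.53 FPKM in Villin-Wls cKO tumors 1 to 5. Villin-Wls cKO tumors 3 and 5 were above every control tumor, and control tumors 1 and 4 were below every Villin-Wls cKO tumor. The log2 difference was 0.54 (SE 0.30, 95% interval -0.12 to 1.20, limma adjusted p = 0.292).

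**Figure D2:**
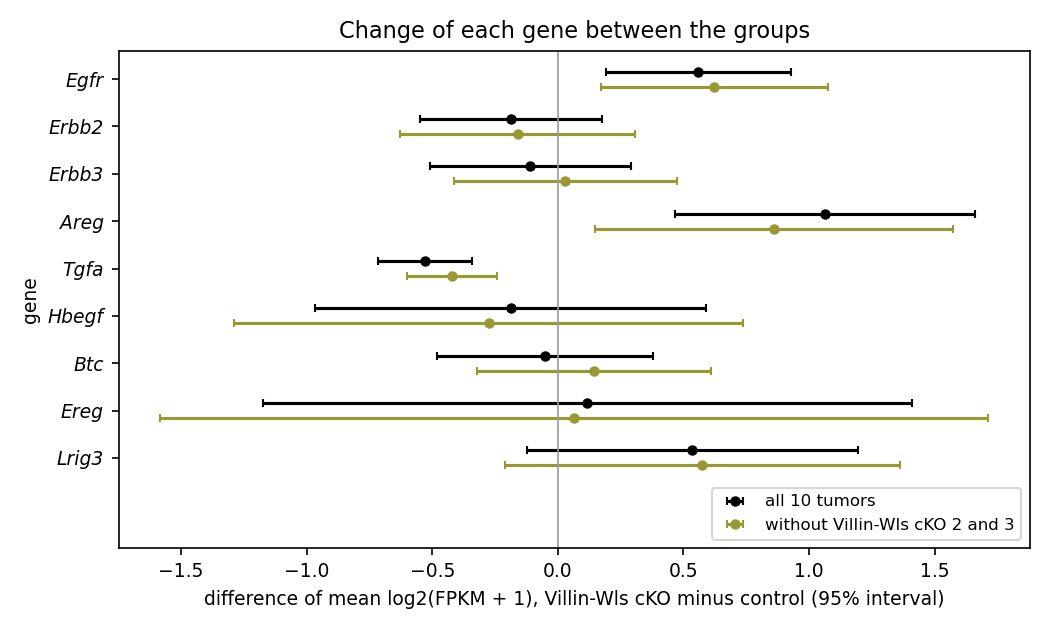
Difference of mean log2(FPKM + 1) for each gene, Villin-Wls cKO minus control, as points with 95% intervals from limma, in black over all 10 tumors and in olive without Villin-Wls cKO tumors 2 and 3. The largest difference is that of Areg, 1.06 with all tumors and 0.86 without the pair, and the narrowest interval with all tumors is that of Tgfa, from -0.71 to -0.34.

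The order of the ligands differed between the groups as a description of their levels. In control tumors Tgfa had the highest mean, followed by Areg, Hbegf at 19.1 ± 13.0, Btc at 9.29 ± 0.801 and Ereg at 5.01 ± 5.09 FPKM (SD, n = 5). Tgfa was above Areg in 3 of 5 control tumors and Areg was above Hbegf in 4 of 5, so neighbours at the top of this order were not separated beyond their spread. In Villin-Wls cKO tumors Areg was above Tgfa in 5 of 5 tumors, and Tgfa was above Hbegf in 4 of 5. The ratio of Areg to Tgfa FPKM lay between 0.489 and 1.21 in control tumors and between 1.60 and 3.46 in Villin-Wls cKO tumors. Areg made up 25.5 ± 5.15% of the summed FPKM of the 5 ligands in control tumors and 47.7 ± 8.19% in Villin-Wls cKO tumors, while Tgfa made up 35.3 ± 10.2% and 20.6 ± 4.92% (SD, n = 5 in each group). The sum itself was 81.1 ± 24.7 and 90.3 ± 10.5 FPKM (SD, n = 5 in each group), with control tumors 1 and 3 at 101.5 and 113.6 FPKM above all others. No test was made of these shares and sums, since they follow from the values of the genes above.

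**Figure D3:**
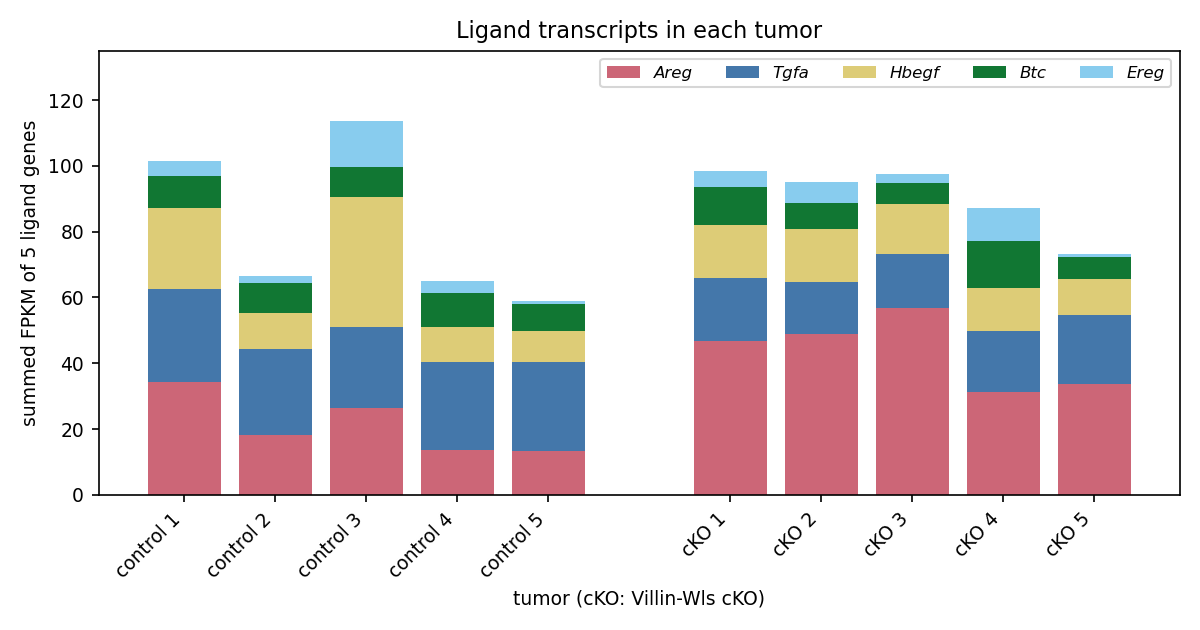
Stacked bars of the FPKM of Areg, Tgfa, Hbegf, Btc and Ereg in each control and Villin-Wls cKO tumor; bar height is the summed FPKM of the 5 ligand genes. Areg makes up between 20.9% and 33.8% of the bar in control tumors and between 35.7% and 58.2% in Villin-Wls cKO tumors.

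A further 82 genes of the pathway, of 88 listed, were read in the same fit, of which 2 rose, 3 fell and 77 did not pass, where 10.9% of all genes passed. Their median difference was -0.065. Of the 82, 32 were above 0 and 50 below, beside 8617 and 8140 of all genes. By limma, 25 of the 82 had an unadjusted p under 0.05. Of these, 7 were in receptor feedback and turnover, 7 in the RAS-ERK cascade and 5 among ERK-induced transcripts. The share of all genes with an unadjusted p under 0.05 was not counted. It is at least the 10.9% that passed after adjustment. These counts therefore do not set the pathway apart from other genes. Of other receptors and ligands of the family, Nrg1 and Nrg4 were analysed. Nrg1 encodes neuregulin-1, a ligand of ERBB3, and was at 1.31 to 4.99 FPKM in control and 1.53 to 4.04 FPKM in Villin-Wls cKO tumors, a log2 difference of 0.017 (SE 0.29, limma adjusted p = 0.983). Nrg4, a ligand of ERBB4, was at 0.777 to 1.23 and 0.623 to 1.28 FPKM. Of 10 genes for shedding and trafficking of ligands, limma passed 0, with 3 at an unadjusted p under 0.05, and their median difference was 0.056. The most abundant of them were Adam10, a protease that releases several of these ligands, with means of 70.7 ± 4.02 and 68.3 ± 12.1 FPKM, and Cnih1, with 59.1 ± 5.58 and 60.3 ± 5.82 FPKM (SD, n = 5 in each group).

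Of 19 genes of receptor feedback and turnover, 1 rose and 1 fell, and the median difference was -0.11. Lrig1, which encodes an inhibitor of EGFR family receptors and marks stem cells of the intestine, averaged 10.1 ± 1.34 FPKM in control and 23.4 ± 4.02 FPKM in Villin-Wls cKO tumors (SD over 5 tumors each), and rose by 1.13 on the log2 scale (SE 0.13, limma adjusted p = 0.000501). Its control tumors lay between 7.82 and 11.0 FPKM and its Villin-Wls cKO tumors between 18.0 and 28.8 FPKM. Rnf41, a ubiquitin ligase that targets ERBB3, averaged 10.6 ± 0.693 FPKM in control and 8.25 ± 0.635 FPKM in Villin-Wls cKO tumors (SD over 5 tumors each), with a log2 change of -0.33 (SE 0.077, limma adjusted p = 0.0212). Rnf41 passed in 17 of 23 alternative settings, and did not pass without Villin-Wls cKO tumors 2 and 3 (-0.31, limma adjusted p = 0.0932), with an equal FPKM total in all tumors (limma adjusted p = 0.207), with a replicate block (limma adjusted p = 0.0623), or without any one of control tumors 2 and 5 and Villin-Wls cKO tumor 3. Cblc, of the CBL ubiquitin ligases, and Socs3, a feedback inhibitor of cytokine receptors, did not pass, with differences of 0.41 (limma adjusted p = 0.0715) and 0.17 (limma adjusted p = 0.805).

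Of 20 adaptors and members of the RAS-ERK cascade, 1 fell and none rose, with a median difference of -0.037. Gab1, a docking protein that couples EGFR to PI3K, was between 10.7 and 13.2 FPKM in control and between 7.35 and 8.55 FPKM in Villin-Wls cKO tumors, a change of -0.49 (SE 0.077, limma adjusted p = 0.00301). Mapk3 and Map2k2, the genes of the kinases ERK1 and MEK2, did not pass, with differences of -0.12 (limma adjusted p = 0.498) and 0.12 (limma adjusted p = 0.364). Of 20 transcripts known to be induced by ERK, 1 rose and 1 fell, and the median difference was -0.11. Dusp6, which encodes a phosphatase that switches ERK off, averaged 32.8 ± 4.34 FPKM in control and 45.2 ± 2.53 FPKM in Villin-Wls cKO tumors (SD over 5 tumors each), and rose by 0.46 on the log2 scale (SE 0.091, limma adjusted p = 0.0106). Etv5, which encodes an ETS transcription factor, averaged 55.6 ± 12.8 FPKM in control and 29.2 ± 7.25 FPKM in Villin-Wls cKO tumors (SD over 5 tumors each), with a log2 change of -0.91 (SE 0.19, limma adjusted p = 0.0151). Both Dusp6 and Etv5 had no overlap between the groups, and neither passed without Villin-Wls cKO tumors 2 and 3 (0.42, limma adjusted p = 0.0634, and -0.67, limma adjusted p = 0.0751). Phlda1 and Junb, the most abundant of those that did not pass, had differences of -0.11 (limma adjusted p = 0.489) and -0.23 (limma adjusted p = 0.295).

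Of 11 genes described from the PI3K-AKT arm, limma passed 0 in either direction, with 3 at an unadjusted p under 0.05, and their median difference was -0.14. Akt1, with control tumors at 146 to 192 FPKM and the others at 145 to 183 FPKM, did not pass (0.016, limma adjusted p = 0.940), and neither did Pik3r2, which encodes a regulatory subunit of PI3K (-0.12, limma adjusted p = 0.579). Of the pathway genes described above, Lrig1 and Gab1 passed in all 23 alternative settings.

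**Figure D4:**
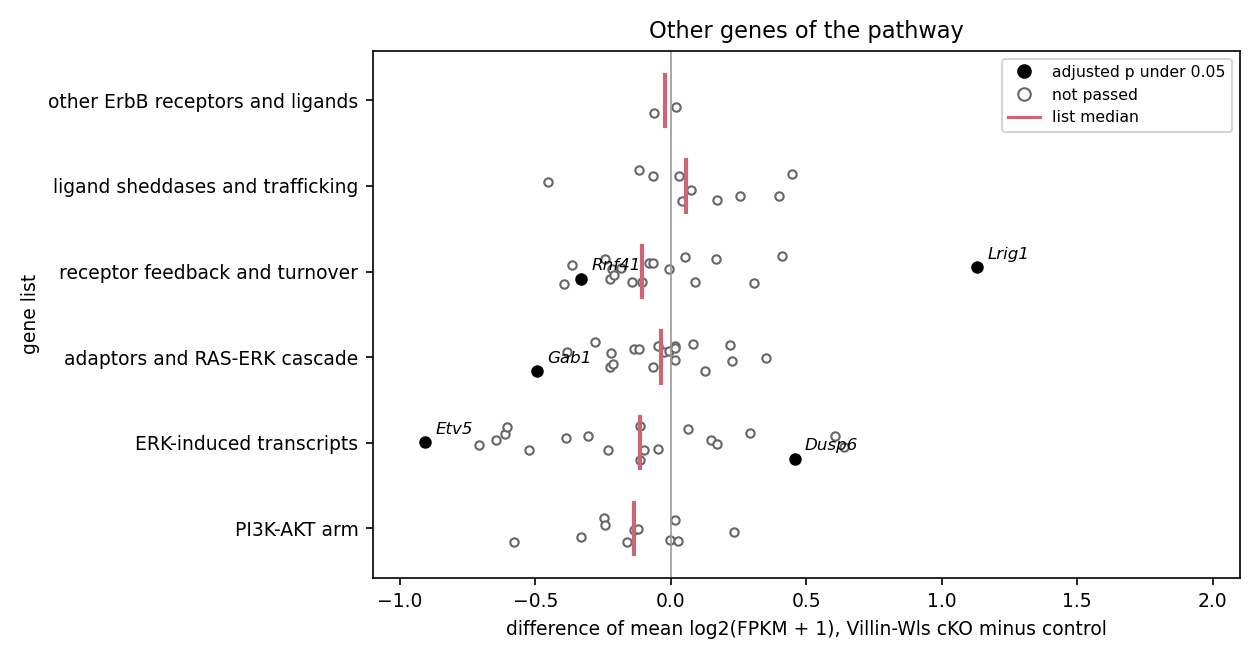
Difference of mean log2(FPKM + 1), Villin-Wls cKO minus control, for the other genes of the pathway; each point is 1 gene, filled and named where the adjusted p was under 0.05, and red bars are list medians. The named genes are 2 higher, of which Lrig1 at 1.13 is farthest from 0, and 3 lower, of which Etv5 at -0.91 is farthest.

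Markers of several cell types moved with the groups, beside Areg, Tgfa and the pathway genes, and their part in these results was not tested. Over all genes tested, 6.12% passed as higher, a share that stands beside each count of risen marker genes below. Of 8 goblet cell genes 4 rose, and their summed level was 2679 to 12233 FPKM in control and 23182 to 28643 FPKM in Villin-Wls cKO tumors. Most of that sum was Spink4, and the sums of the other 7 goblet genes overlapped, at 761 to 2670 FPKM in control and 2102 to 6051 FPKM in Villin-Wls cKO tumors. Of 8 T cell genes 4 rose, among them Cd3e and Cd8a, and the sum was 13.0 to 21.4 FPKM in control and 21.4 to 43.6 FPKM in Villin-Wls cKO tumors. Levels were low, at 0.291 to 0.517 and 0.802 to 1.67 FPKM for Cd3e and 0.0373 to 0.184 and 0.384 to 1.41 FPKM for Cd8a. The 4 T cell genes that did not pass were Cd2 (0.69), Trac (0.96), Cd4 (-0.049) and Lck (0.076). Krt20 rose among 12 pan-epithelial genes, whose sum was 6864 to 9728 and 8404 to 10489 FPKM, Ceacam1 among 8 colonocyte genes (479 to 1095 and 826 to 1646 FPKM), Cd14 among 8 macrophage genes (223 to 385 and 207 to 414 FPKM), and Sprr1a among 9 squamous genes (118 to 265 and 139 to 1519 FPKM). Of the colonocyte genes, 6 had a difference above 0 and 2 below. Those below were Slc9a3 (-0.96, limma adjusted p = 0.0883) and Cyp2c55 (-1.73, limma adjusted p = 0.0969), which did not pass. Of the macrophage genes, 3 were above 0 and 5 below. By limma no gene passed among 8 fibroblast genes (286 to 1027 and 386 to 1174 FPKM), 7 smooth muscle genes (65.2 to 151 and 83.6 to 163.5 FPKM), 7 endothelial genes (26.2 to 53.8 and 23.1 to 57.0 FPKM), 6 neutrophil genes (227 to 775 and 591 to 1241 FPKM) and 6 mast cell genes (25.2 to 40.5 and 27.2 to 48.7 FPKM, with Mcpt1 and Mcpt2, which have identical values, counted as 1). Of these, 5 neutrophil, 2 mast cell and 0 other genes had an unadjusted p under 0.05. Epcam, which marks epithelium, was at 923 to 1043 FPKM in control and 911 to 1321 FPKM in Villin-Wls cKO tumors. Of the 12 pan-epithelial genes, 11 had a difference above 0 and 1 below, and 7 had an unadjusted limma p under 0.05. Cldn4, the 1 gene below 0 (-0.40, limma adjusted p = 0.114), was among the 7. For counts at an unadjusted p, the share over all genes was not counted and is at least the 10.9% that passed after adjustment. Such counts do not set these marker lists apart from other genes.

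Among themselves, the 9 genes followed each other in a few pairs. Over the 10 tumors, Pearson's r of log2(FPKM + 1) was 0.89 between Erbb2 and Erbb3 and stayed at 0.89 after the group means were removed. Areg and Egfr had an r of 0.83, and of 0.61 with group means removed. Areg and Tgfa had an r of -0.80, and of -0.34 with group means removed. Hbegf and Areg went the other way, from 0.37 to 0.80 with group means removed. These values describe 10 libraries that also share their differences in tissue makeup, and no test was made.

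The genes most like each of the 9, by Pearson's r over the same 10 tumors, were looked up among 14119 others with a mean FPKM of at least 1. For Areg they were Tmem140 (r = 0.96), Dusp6 (0.95), the ERK phosphatase gene described above, and the interferon-induced gene Oas3 (0.95). With group means removed, r was 0.94, 0.88 and 0.88. Dusp6 was lowest in control tumors 4 and 5, where Areg was lowest as well. For Hbegf they were Fos (0.94), Atf3 (0.92) and Dusp5 (0.91), 3 genes known to be switched on within minutes to hours of growth factor or stress signals. Fos was highest in control tumors 1 and 3, which had 81.3 and 156 FPKM, and ranged from 23.2 to 50.5 FPKM elsewhere. For Tgfa they were Scp2 (0.98), a sterol carrier, Hace1 (0.97), a ubiquitin ligase, and Rere (0.97), a transcriptional corepressor, and with group means removed r was 0.83, 0.87 and 0.78. For Egfr they were Atg4a-ps (0.96), Clca4a (0.95) and Copb2 (0.95), a coat protein of transport vesicles. For Ereg they were Pxdc1 (0.96), the VEGF receptor gene Flt1 (0.95) and Tnfrsf9 (0.94), a costimulatory receptor of lymphocytes. For Erbb2 they were the adenylyl cyclase gene Adcy6 (0.97), Lrrc31 (0.92) and Dcp1b (0.92), and for Erbb3 they were Dopey2 (0.96), Crebl2 (0.95) and Esrp1 (0.93), a splicing regulator of epithelial cells. For Btc they were Aasdhppt, Ppid and the protease gene Adam10 (0.93, 0.93 and 0.92), and for Lrig3 Mir7011, Tmem54 and Atp2c2 (0.99, 0.97 and 0.96). For these 7 genes, r with group means removed was between 0.90 and 0.99. All genes named here were picked as the highest of 14119 values of r over only 10 tumors. A high r was therefore partly given by the search, and no test was made.

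**Figure D5:**
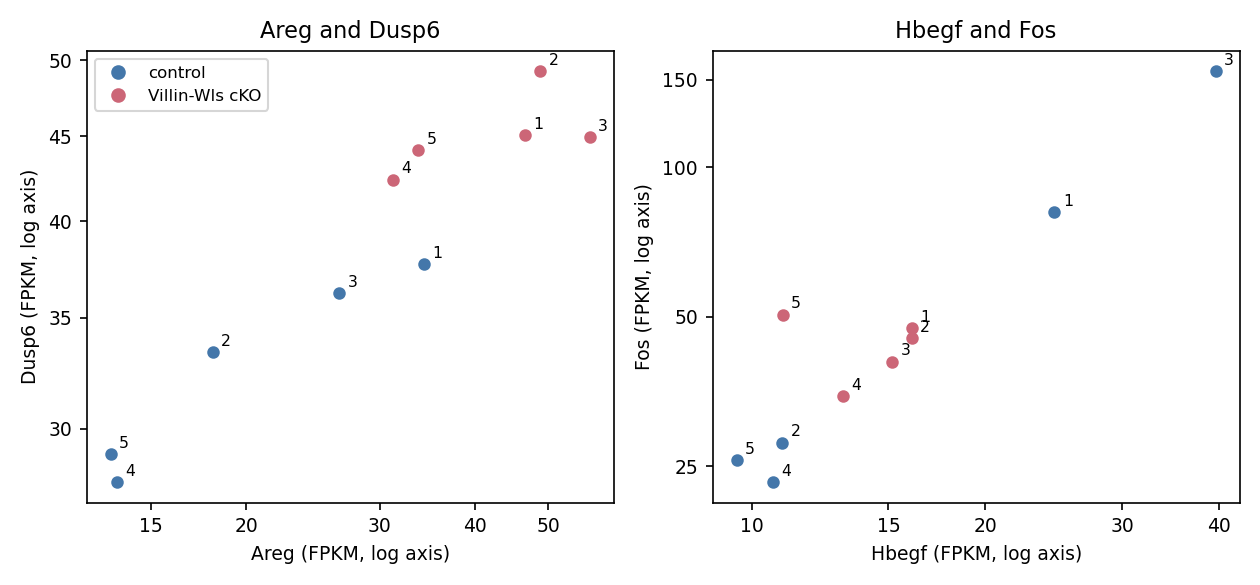
FPKM (log axes) of Areg against Dusp6, and of Hbegf against Fos, in 5 control and 5 Villin-Wls cKO tumors; each point is 1 tumor, with its number. Dusp6 separates the groups at 37.7 and 42.4 FPKM and also follows Areg within control tumors, and control tumors 1 and 3 lie at the upper right for Hbegf and Fos. Dusp6 and Fos were picked for their likeness to Areg and Hbegf in these same tumors.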

How the data were processed

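RNA of 10 macrodissected colon tumors, 5 control and 5 Villin-Wls cKO, had been sequenced from TruSeq stranded mRNA libraries. Per the labels and the study's methods, reads were checked with FastQC, mapped with TopHat2 2.1.1 to GRCm38.p5 and quantified with Cufflinks 2.2.1 and Cuffdiff. The deposited values are FPKM per gene name and tumor; the tools were run at default settings, which do not use strand, and the annotation release is not given in the sources used here. Each of 10 columns carried the name of 1 tumor, and 0 columns had no tumor. Of the gene names, 2419 shared all values with another name, none of them among the 9 genes described.

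FPKM were analysed as log2(FPKM + 1), with a pseudocount of 1 and a mean FPKM of at least 0.5, by limma 3.58.1 in R 4.3.3 (variance trend, no covariate, two-sided, Benjamini-Hochberg adjustment over 16757 genes). The method was checked on simulated data. Summaries used Python 3.11.15, numpy 2.4.6, pandas 2.3.3 and matplotlib 3.10.9. Positions are from GENCODE M21 on GRCm38, promoter windows from RefSeq. The alternatives are other pseudocounts, scalings, filters and variance models, a replicate block, identical entries counted once, each tumor left out, and Villin-Wls cKO tumors 2 and 3 left out together.

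The 10 genes and all lists were chosen with earlier results of these data known. From the lists, 1 gene is not reported here. Named beside the 9 genes are, from each list, up to 4 genes past the threshold with the smallest adjusted p and the 2 most abundant others, the 3 genes most alike in pattern, and Wls, Xist, 4 Y-chromosome genes and Krt5 as checks. Trp63, Epcam and the marker genes named were chosen after their values were seen.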

Additional observations from a re-analysis of the deposited data

Results flagged for a closer look

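Ereg in control tumor 3, at 13.8 FPKM, lay far from the other control tumors, the nearest of which was at 4.50 FPKM. The gap was 0.723 of the whole range of the group, above the critical value of 0.71 for 5 samples. It was taken on FPKM, and the rule was not applied on the log2 scale used for the changes. The levels of 14 genes were looked at in this way in both groups, 28 groups of tumors in all, of which this was the 1 flagged, and chance alone puts about 5% of groups past the value.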

How the results depend on the processing

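Tgfa kept its direction and its call in all 23 alternatives. Areg kept its direction in all of them and its call in 16: leaving out each tumor in turn gave 0.93 to 1.26, and leaving out Villin-Wls cKO tumors 2 and 3 gave 0.86. Egfr passed with an equal FPKM total in all tumors (0.64), with tumor quality weights (0.61) and with a replicate block (0.56), and lay between 0.47 and 0.68 with each tumor left out, so that 2 genes were higher under these settings in place of 1, 0 without Villin-Wls cKO tumors 2 and 3, and 0 to 2 with each tumor left out. Signs turned only for genes that never passed: Erbb3 was at 0.029 without Villin-Wls cKO tumors 2 and 3, Btc at 0.14 without them, 0.046 with equal FPKM sums and 0.0051 with quality weights, and with each tumor left out Btc lay between -0.21 and 0.055, Ereg between -0.20 and 0.53 and Hbegf between -0.36 and 0.12. The number of genes past the threshold, 1822 of which 1026 were higher and 796 lower, was 1101 without Villin-Wls cKO tumors 2 and 3 and 1229 to 1986 with each tumor left out; with equal FPKM sums it was 1797 (1385 higher, 412 lower), and quantile normalization gave 2018 (893 higher, 1125 lower). Correlations between tumors of the same replicate number, after removing group means, lay between -0.087 and 0.16. Of 5 control tumors, 2 were closest to the Villin-Wls cKO tumor of their own number. Whether a shared replicate number marks paired tumors cannot be settled from these values. With the replicate block 1627 genes passed. The causes of these shifts were not tested. Depth is unknown for FPKM, so counting error could not be given.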

Other observations

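Control tumors 1 and 3, which had the highest Hbegf, were also the 2 highest of all 10 tumors for 7 of the 20 ERK-induced transcripts (Dusp4, Dusp5, Egr1, Egr3, Fos, Fosb and Junb), a tally made after the values were seen. Fos and Dusp5 had already been picked above for their likeness to Hbegf in the same tumors, so their place in the tally partly followed from that search. How many of all genes had these 2 tumors highest was not counted, so the 7 cannot be set against a background share. The other 13 did not follow this order, among them Egr2, at 1.20 and 0.775 FPKM in these tumors beside 2.56 and 2.73 FPKM in control tumors 2 and 5. Egr1, a transcription factor induced by ERK, was at 18.9 and 28.7 FPKM in these tumors and at 6.63 to 9.62 FPKM in the other 8, and Fosb was at 13.4 and 21.7 FPKM beside 0.610 to 6.89 FPKM. Plaur, the urokinase receptor gene, had another pattern, with 71.1 FPKM in control tumor 3, 27.9 to 35.7 FPKM in the other control tumors and 42.2 to 72.8 FPKM in Villin-Wls cKO tumors, and it did not pass the threshold.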
